A study of Mus musculus with 24 samples.

Results

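Transcripts of 8 genes of the pericellular proteolysis system were followed in Ocy454 cells, a mouse osteocytic line: the matrix metalloproteinases (MMPs) Mmp13, Mmp10, Mmp3, Mmp2 and Mmp14 and the tissue inhibitors of metalloproteinases (TIMPs) Timp1, Timp2 and Timp3. They were chosen by name, with earlier results of these data known. They are 8 of the 49172 genes that could be summed from the deposited transcript tables. The agents were LPA (lysophosphatidic acid, a signalling lipid) and 1,25D (1,25-dihydroxyvitamin D, the hormonal form of vitamin D). Cells were given vehicle, 1 agent or both and harvested at 2 h or 8 h, which made 8 groups of 3 libraries and 24 libraries in all. The labels give no doses, no passage or culture identity and no genetic change, and all groups share the one cell line. Whether replicates were grown separately is not stated either, so the p-values measure the spread between these libraries, which may be technical.

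MMPs are zinc endopeptidases that are made as inactive proenzymes and cut collagens, proteoglycans and other matrix proteins. TIMPs bind the active enzymes and block them, and TIMP-2 also helps the membrane-bound MMP-14 to activate pro-MMP-2. In bone, osteoblasts and osteocytes make collagenase 3, the product of Mmp13, and osteocytes use MMPs to remodel the matrix around their lacunae.

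For the single treatments, the sample titles and the letters L and D used to name the tables are exchanged. The division of the libraries into groups is the same under both, so each single treatment is called here by its letter in the table name: code D libraries carry titles that say LPA, and code L libraries carry titles that say 1,25D. Cyp24a1, whose 24-hydroxylase breaks down 1,25D and whose gene is switched on by the vitamin D receptor, had 25, 48 and 29 counts in the 3 code D libraries at 8 h and 35, 28 and 24 with both agents. The vehicle and the code L libraries at 8 h held 1 Cyp24a1 count per group. Vdr, which encodes the vitamin D receptor, had a mean of 73.4 TPM (a level scaled to transcript length and library depth) in code D, 20.1 in code L and 33.4 in vehicle at 8 h. These levels go against the titles. Comparisons of both agents with vehicle, and the tests of departure from additivity, are the same under either naming.

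The libraries held 32.96 to 33.84 M estimated counts, and mitochondrially encoded genes took 9.01 to 16.92% of them, the highest share being in vehicle replicate 2 at 8 h. That library and replicate 2 with both agents at 8 h stood apart on the main axis of variation within groups. Their scores were 41.3 and 35.1, where the other 22 lay between -27.3 and 20.02. Several 8 h results of the members are therefore also given without these 2 libraries. Values of the other genes named below were not taken without them. Among 11 osteocyte and osteoblast markers, Col1a1 (274.8 to 1317 TPM) and Pdpn (38.2 to 72.0 TPM) were present in every library. Dmp1 had a median of 1.03 TPM, and the mature osteocyte markers Sost and Mepe never passed 0.114 and 0.0218 TPM. Of the 11 markers, 6 had a median under 1 TPM: Sost, Mepe, Ibsp (0), Phex (0.148), Sp7 (0.23) and Alpl (0.817). Runx2 (26.1) and Bglap (4.475) had medians above that level. Of 23 markers of macrophages and osteoclasts, chondrocytes, adipocytes and endothelium, only Cd68 and Sox9 had a median of 1 TPM or more. Cd68, from the macrophage and osteoclast list, had a median of 14.1 TPM (11 to 18.8). Among the markers under 1 TPM, Ptprc, Adgre1, Acan, Adipoq and Kdr had medians between 0 and 0.0582 TPM. Medians were higher for, among others, Cdh5 (0.58), Acp5 (0.344), Fabp4 (0.239) and Csf1r (0.171). The summed level of the 5 chondrocyte markers, with Sox9 (median 1.53 TPM) and Comp (0.371 TPM) the highest of them, was 1.82 to 2.70 TPM with vehicle, 5.41 to 7.37 in code L and 3.73 to 5.53 with both agents at 2 h, and 0.655 to 1.95, 2.09 to 2.91 and 0.525 to 1.08 at 8 h. Its part in the results below was not tested. In such bulk samples a change in the cells present and a change in RNA per cell cannot be told apart.

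Promoter sequences of Mmp13, Mmp10 and Mmp3 are printed first, because they share a short motif that binds AP-1, the Fos and Jun family of transcription factors. RefSeq promoter windows, from 250 bases before to 50 bases after the start of transcription, were found for 7 of the 8 members, and none was used for Mmp2. They are on GRCm38.p6, whereas the deposited tables were made on mm39. The AP-1 motif TGAGTCA, searched on both strands, had 1 match in each of the windows of Mmp13, Mmp10 and Mmp3, and no match in those of Mmp14, Timp1, Timp2 and Timp3. Of 32851 windows of the same length, 5.2% held it. A stretch of 150 bases around each match is given 5′ to 3′ on the plus strand of chromosome 9, with the match in capitals.
Mmp13, chr9:7272364-7272513: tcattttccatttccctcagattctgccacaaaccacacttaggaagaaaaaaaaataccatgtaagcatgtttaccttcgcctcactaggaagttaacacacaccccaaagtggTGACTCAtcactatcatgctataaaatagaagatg
Mmp10, chr9:7502192-7502341: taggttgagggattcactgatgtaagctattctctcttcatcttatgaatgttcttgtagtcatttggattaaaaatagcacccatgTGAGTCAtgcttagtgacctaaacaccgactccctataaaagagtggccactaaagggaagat
Mmp3, chr9:7445672-7445821: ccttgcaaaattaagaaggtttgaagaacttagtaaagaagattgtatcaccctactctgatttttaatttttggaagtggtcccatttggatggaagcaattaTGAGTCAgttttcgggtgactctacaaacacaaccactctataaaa
The match began 35 bases before the start in Mmp13, where it lies on the minus strand, 63 bases before it in Mmp10 and 46 in Mmp3. The RUNX motif AACCACA, present in 5.27% of windows, was found only in Mmp13 among the 7, 119 bases before the start. The ETS-like motif AGGAAG, present in 35.35% of windows, had 2 matches in Mmp13, 3 in Timp1, 1 each in Mmp3, Mmp14 and Timp3, and none in Mmp10 and Timp2. No matches of different motifs overlapped in these windows, and a match describes the sequence, not binding.

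Mmp13, which encodes the collagenase that cuts fibrillar collagens in bone and cartilage, rose under each agent alone and most with both. At 2 h its counts were 76, 55 and 56 with vehicle, 130, 167 and 134 in code L, 99, 154 and 147 in code D, and 359, 394 and 568 with both agents. The single treatments overlapped each other and lay above every vehicle library, and the libraries with both agents lay above all others at that time. By 8 h the counts were 61, 49 and 58 with vehicle, 295, 253 and 276 in code L, 616, 602 and 610 in code D, and 2814, 2800 and 2347 with both. None of the 4 groups overlapped at 8 h.

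In TPM, Mmp13 stood at 0.855 ± 0.18 with vehicle and 6.08 ± 1.5 with both agents at 2 h, and at 0.725 ± 0.12 and 34.2 ± 2.9 at 8 h (SD, n = 3). The order of the 8 groups from the highest was both at 8 h, code D at 8 h (8.34), both at 2 h, code L at 8 h (3.68), code L at 2 h (2.00), code D at 2 h (1.74), vehicle at 2 h and vehicle at 8 h. Neighbours overlapped between code L and code D at 2 h and between the 2 vehicle groups, and nowhere else in this order. As the plot of collagenase and stromelysin levels by library shows, the rise with both agents was in all 3 libraries at each time.

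**Figure D1:**
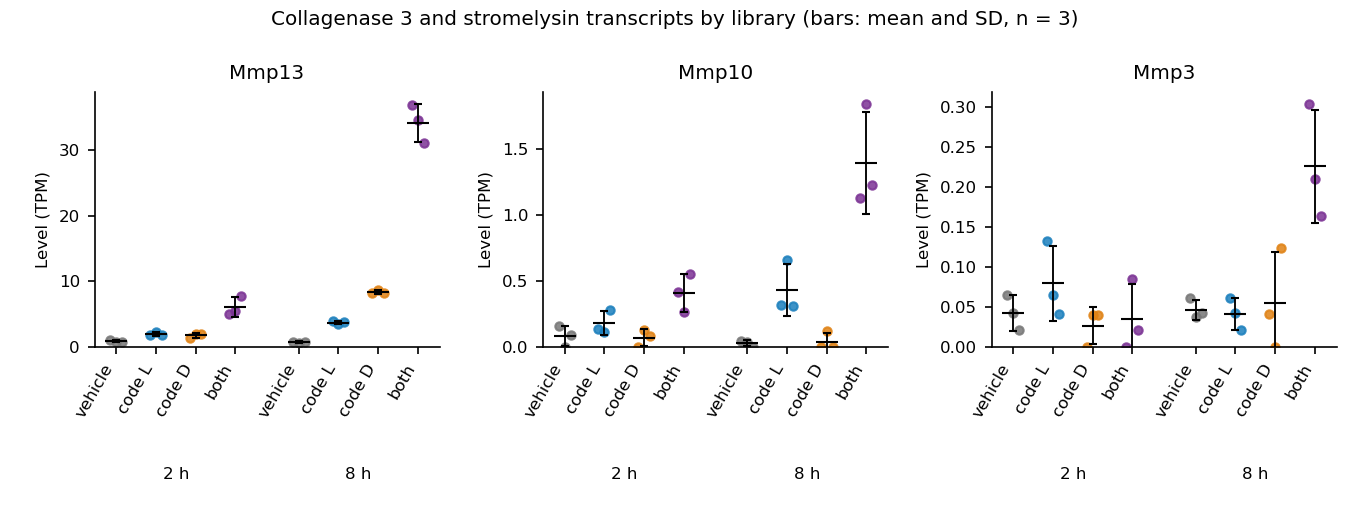
Level in TPM (vertical axis) of Mmp13, Mmp10 and Mmp3 in each of the 24 libraries (points) by treatment and time, with the mean and SD of 3 libraries in black. The 3 libraries with both agents at 8 h are highest for each gene, with Mmp13 between 31.2 and 36.9 TPM, Mmp10 between 1.13 and 1.84 and Mmp3 between 0.164 and 0.303.

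Tested with edgeR's quasi-likelihood test and Benjamini-Hochberg adjustment over 16424 genes, Mmp13 rose with both agents by 2.92 ± 0.20 (SE) on the log2 scale at 2 h, or 7.58-fold (adjusted p = 3.35e-10). At 8 h it rose by 5.64 ± 0.20, or 49.8-fold (adjusted p = 1.82e-14). Its rise in code L was 1.30 ± 0.21 at 2 h and 2.31 ± 0.20 at 8 h (adjusted p = 0.000122 and 8.73e-08). In code D it was 1.15 ± 0.21 at 2 h and 3.42 ± 0.20 at 8 h (adjusted p = 0.00449 and 4.41e-11). These 3 comparisons at each time share the vehicle libraries. Both agents also exceeded each one alone at 8 h, by 3.33 ± 0.16 against code L (adjusted p = 7.98e-12) and 2.22 ± 0.16 against code D (adjusted p = 8.91e-09), and at 2 h by 1.63 ± 0.18 and 1.77 ± 0.18 (adjusted p = 1.31e-05 and 3.12e-07). Without the 2 libraries that stand apart, the change with both agents at 8 h was 5.51 (adjusted p = 2.8e-13).

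The sum of the single rises fell short of the level of Mmp13 with both agents. In CPM, counts scaled to library size, the additive expectation, code L plus code D minus vehicle, was 24.2 at 8 h, and the libraries with both agents averaged 82.2 ± 10 (SD, n = 3), which is 3.4 times as much. The excess was 58.0 ± 6.5 CPM (SE, adjusted p = 5.76e-05 by the delta-method test from edgeR's fit). The lowest library with both agents, at 70.4 CPM, lay above 25.3 CPM, the sum of the highest code L and the highest code D library less the lowest vehicle library. At 2 h the additive expectation was 6.61 CPM, the level with both agents 13.6 ± 3.7 CPM and the excess 7.01 ± 1.3 CPM (adjusted p = 0.0300), again with the lowest library (10.9 CPM) above the strictest sum (8.25 CPM). Among all genes the same test called 0.0548% at 2 h and 6.51% at 8 h, and among the 7 members tested it called only Mmp13, at both times. The 8 h share was unstable: the 1069 genes called became 64 without the 2 libraries that stand apart, 42 in a fit of the 8 h libraries alone, and 79 (without replicate 2 with both agents) to 4080 (without replicate 3 with both agents) when 1 library was left out.

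The excess at 8 h stood at 54.5 CPM without the 2 libraries that stand apart (adjusted p = 3e-04). At 2 h the call was narrow. It was lost without any one of 7 libraries, with adjusted p between 0.052 and 0.2, and the excess was 4.91 CPM without replicate 3 with both agents. It was also lost with counts from length-scaled TPM (adjusted p = 0.061), in a fit of the 2 h libraries alone (0.28) and with limma on TPM as deposited (0.73). On the multiplicative scale no departure passed the test: the log2 interaction of Mmp13 was 0.48 ± 0.27 at 2 h and -0.09 ± 0.26 at 8 h (edgeR adjusted p = 0.996 and 0.84). The product of the single fold changes predicted 87.5 CPM at 8 h, beside the 82.2 CPM measured. Interaction calls covered 0.0365% of genes at 2 h and 7.68% at 8 h (1262 genes, and 25 without the 2 libraries that stand apart), and none of the 7 members at either time.

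**Figure D2:**
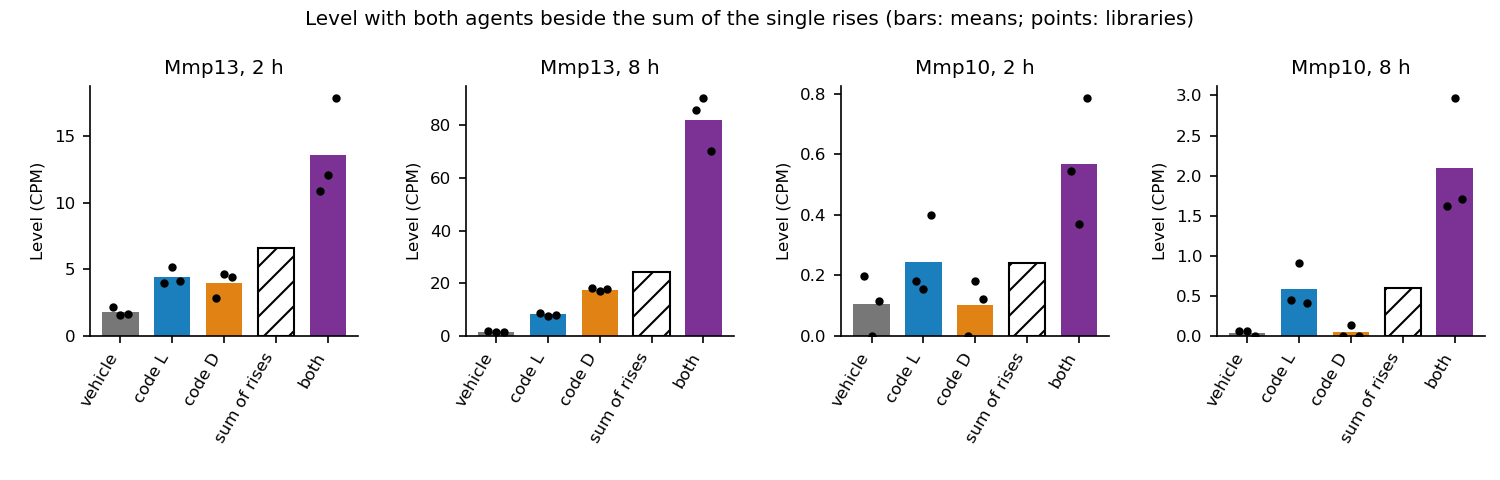
Level in CPM (vertical axes, each on its own scale) of Mmp13 and Mmp10 with vehicle, code L, code D and both agents, as bars for the mean of 3 libraries and points for libraries, beside the sum of the single rises over vehicle (hatched). For Mmp13 the lowest library with both agents lies above the hatched bar at both times (10.9 against 6.61 CPM at 2 h, 70.4 against 24.2 CPM at 8 h). For Mmp10 it does too on a far lower scale (0.369 against 0.241 CPM at 2 h, 1.62 against 0.596 CPM at 8 h). The Mmp10 excess did not pass the test at either time.

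Mmp10 encodes stromelysin 2 and Mmp3 stromelysin 1, enzymes that cut proteoglycans, fibronectin and basement membrane and can activate procollagenases. Both were rare in these cells. Of the 31-base words in their annotated transcripts, 202 were common to both genes (of 1692 in Mmp10 and 1771 in Mmp3), while no other pair of members shared any, so the split of counts between Mmp10 and Mmp3 is uncertain.

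Mmp10 had 2, 2 and 0 counts with vehicle at 8 h, 15, 30 and 14 in code L, 0, 5 and 0 in code D, and 53, 92 and 57 with both agents. Libraries with both agents were highest, code L libraries came next without overlapping them, and all 5 code D counts were in 1 library. Summed counts with both agents were 52.9 times those with vehicle (95% exact interval 20.4 to 196, counting error only). In the fit, Mmp10 rose by 5.73 ± 1.14 (SE) on the log2 scale with both agents (edgeR adjusted p = 0.000148) and by 3.90 ± 1.16 in code L (adjusted p = 0.0108). Mmp10 entered the tests only through libraries of code L and of both agents. The vehicle and code D libraries held 0 to 7 counts at either time, under the filter's minimum count of 10. The code D value was 0.28 ± 1.43 and did not pass (adjusted p = 0.918). Without code L replicate 2 the code L change was 3.43, with an adjusted p of 0.05 after rounding, and the call was lost. Without the 2 libraries that stand apart the change with both agents was 5.85 (adjusted p = 0.0021).

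Counts at the earlier time were again highest with both agents. At 2 h Mmp10 had 7, 0 and 4 counts with vehicle, 6, 5 and 13 in code L, 0, 6 and 4 in code D, and 18, 12 and 25 with both. The vehicle and single-treatment libraries overlapped, and the lowest library with both agents (12) was just under the highest code L library (13). The rise with both agents was 2.42 ± 0.88 on the log2 scale (edgeR adjusted p = 0.0491), a call that was lost when any one of 5 libraries was left out, with adjusted p between 0.06 and 0.17. The 2 h comparison of both agents with code D, at 2.50 ± 0.90 (adjusted p = 0.0476), was lost without any one of its 6 libraries.

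For Mmp10 a rise beyond the sum of the single rises did not pass the test. At 8 h the additive expectation was 0.596 CPM, and the libraries with both agents averaged 2.10 ± 0.75 CPM (SD, n = 3). The excess was 1.5 ± 0.69 CPM, with an unadjusted p of 0.041 and an adjusted p of 0.127 by the delta-method test from edgeR's fit. With no filter on low counts it was 1.49 CPM and passed (adjusted p = 0.027), and without the 2 libraries that stand apart it was 1.06 CPM (adjusted p = 0.53). All 81 ways of picking 1 library from each group gave a level above the additive sum. These picks reuse the same 12 libraries and are a description. At 2 h the excess was 0.327 ± 0.23 CPM (adjusted p = 0.999). The comparison of both agents with code L at 8 h, 1.83 ± 0.67 on the log2 scale, did not pass either (edgeR adjusted p = 0.1), although the libraries did not overlap. It passed with DESeq2 (adjusted p = 0.049) and with no filter (adjusted p = 0.0079), and was 1.49 without the 2 libraries that stand apart (adjusted p = 0.36).

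Mmp3 did not pass the filter on low counts and has no test. Its counts with both agents at 8 h were 15, 11 and 8, while the other 21 libraries had 0 to 6. Summed over the group this made 34 counts beside 7 with vehicle, a ratio of 5.09 (95% exact interval 2.22 to 13.6, counting error only). At 2 h the groups had 4 to 11 counts each and overlapped. The 2 stromelysins thus had their highest counts in the same group, with the reservation on shared sequence above.

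Mmp2 encodes gelatinase A, which cuts denatured collagen, and Mmp14 encodes the membrane-type MMP that activates it. They made up 88.4% of the summed TPM of the 5 MMPs with both agents at 8 h and 97.8% or more in every other group. Mmp2 stood at 258, 218 and 222 TPM with vehicle at 2 h, 192, 155 and 181 with both agents at 2 h, 213, 165 and 208 with vehicle at 8 h, and 157, 146 and 151 with both at 8 h. All 3 libraries with both agents lay below all 3 vehicle libraries at each time. Mmp2 fell by 0.32 ± 0.07 on the log2 scale with both agents at 2 h and by the same 0.32 ± 0.07 at 8 h (edgeR adjusted p = 0.00296 and 0.00313), about 0.80 of the vehicle level. At 8 h it fell by 0.33 ± 0.07 in code L (adjusted p = 0.00327) and by 0.25 ± 0.07 in code D (adjusted p = 0.0291). In TPM each single treatment overlapped the vehicle range, whose lowest library (165 TPM) is the one that stands apart. In CPM neither did, at 485 to 551 with vehicle, 397 to 413 in code L and 415 to 451 in code D. The code D call was lost without vehicle replicate 1 (adjusted p = 0.09) or code D replicate 3 (adjusted p = 0.11), and with no filter on low counts (adjusted p = 0.09).

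Mmp14 passed the test in none of the 18 comparisons. Its levels with vehicle at 8 h were 156, 80.3 and 215 TPM, and with both agents 126, 87.2 and 170 TPM, the lowest in each group being the library that stands apart. Its group means ran from 128 TPM (both at 8 h) to 212 TPM (code L at 2 h), and every neighbouring pair in that order overlapped. The log2 interaction at 8 h was -0.82 ± 0.28 (edgeR adjusted p = 0.0589). It passed with DESeq2 (adjusted p = 0.025) and with no filter (7.3e-08), and was -0.40 without the 2 libraries (adjusted p = 0.43). The main protein-coding transcript carried 90.5 to 97.5% of the gene's counts.

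Timp1 encodes a secreted inhibitor of most soluble MMPs and was the most abundant member in every group by mean TPM. In code D at 8 h this lead was slight, at 324 ± 14 TPM beside 316 ± 65 for Timp2 (SD, n = 3). Timp1 rose in code L and with both agents, and did not pass the test in code D. At 2 h its levels were 300, 256 and 278 TPM with vehicle, 508, 520 and 572 in code L, 297, 304 and 286 in code D, and 560, 574 and 584 with both agents. At 8 h they were 346, 327 and 377 TPM with vehicle, 1558, 1500 and 1472 in code L, 340, 313 and 319 in code D, and 1298, 1434 and 1284 with both. Code L and both lay far above vehicle and code D at each time. At 8 h the code L libraries lay above those with both agents in TPM only. In CPM these groups overlapped, at 852 to 949 in code L and 778 to 1011 with both.

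The change of Timp1 in code L was 1.00 ± 0.10 on the log2 scale at 2 h and 2.07 ± 0.10 at 8 h (edgeR adjusted p = 1.59e-07 and 1.5e-11). With both agents it was 1.11 ± 0.10 and 2.01 ± 0.10 (adjusted p = 2.33e-08 and 2.04e-12). The difference between both agents and code L was 0.11 ± 0.10 at 2 h and -0.06 ± 0.10 at 8 h (adjusted p = 0.836 and 0.734). Code D gave 0.19 ± 0.10 and -0.22 ± 0.10 (adjusted p = 0.381 and 0.128). In code D at 8 h, then, Mmp13 rose 10.7-fold while Timp1 stood at 0.856 of vehicle without passing, and the difference between the 2 genes was not tested.

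Timp2 encodes the inhibitor that bridges MMP-14 and pro-MMP-2. It rose in code D at 8 h, where its levels were 266, 390 and 294 TPM beside 192, 112 and 228 with vehicle. No code D library overlapped the vehicle range, and the lowest vehicle library was the one that stands apart. The change was 0.75 ± 0.15 on the log2 scale (edgeR adjusted p = 0.00129), and 0.55 without the 2 libraries that stand apart (adjusted p = 0.0012). The summed level of the 11 osteocyte and osteoblast markers, mostly Col1a1, was 957 to 1405 TPM in code D, 337 to 946 with vehicle and 486 to 1055 with both agents at 8 h, and its part in the Timp2 result was not tested. With both agents Timp2 stood at 241, 162 and 254 TPM, a change of 0.39 ± 0.15 that did not pass (adjusted p = 0.0745). That comparison passed without vehicle replicate 3 (0.52, adjusted p = 0.03) or without replicate 2 with both agents (0.51, adjusted p = 0.025). It was 0.21 without vehicle replicate 2 (adjusted p = 0.32) and 0.34 without the 2 libraries that stand apart (adjusted p = 0.06). Against code D, both agents gave -0.36 ± 0.15 with no overlap of libraries, which did not pass (edgeR adjusted p = 0.0814). The log2 interaction at 8 h, -0.55 ± 0.21, did not pass either (adjusted p = 0.0731). It passed with DESeq2 (adjusted p = 0.041) and with no filter (0.00073), and was -0.23 without the 2 libraries that stand apart (adjusted p = 0.51).

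Timp3 encodes the TIMP that binds to the extracellular matrix and also inhibits ADAM and ADAMTS proteases. At 2 h its levels were 104, 97.7 and 98.2 TPM with vehicle, 176, 168 and 154 in code L, 92.6, 80.7 and 87.2 in code D, and 162, 162 and 165 with both agents. Code L and both rose, by 0.77 ± 0.07 and 0.76 ± 0.07 on the log2 scale (edgeR adjusted p = 3.12e-08 and 2.66e-08). At 8 h the levels were 65.8, 59.97 and 65.1 TPM with vehicle, 85.5, 88.5 and 87.0 in code L, 53.6, 56.9 and 58.8 in code D, and 58.2, 58.0 and 59.3 with both. Only code L lay above vehicle at that time.

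The 8 h tests of Timp3 gave a rise of 0.40 ± 0.07 in code L (edgeR adjusted p = 0.000258), a fall of 0.29 ± 0.07 in code D (adjusted p = 0.0054) and a value of -0.06 ± 0.07 with both agents that did not pass (adjusted p = 0.613). Both agents were lower than code L alone by 0.47 ± 0.07 (adjusted p = 4.49e-05). They were higher than code D by 0.23 ± 0.07 (adjusted p = 0.0178), although the TPM ranges overlapped. That call was lost without replicate 2 of code D or of both (adjusted p = 0.13 and 0.11). It was lost too without the 2 libraries that stand apart (0.19, adjusted p = 0.08). A fit of the 8 h libraries alone (0.077) and no filter (0.15) lost it as well. With vehicle alone, Timp3 was lower at 8 h than at 2 h by 0.51 ± 0.07 (adjusted p = 1.72e-05) and Timp1 higher by 0.43 ± 0.10 (adjusted p = 0.00364). These were the only 2 of 7 members called between the vehicle groups, where 14.6% of all genes were called.

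**Figure D3:**
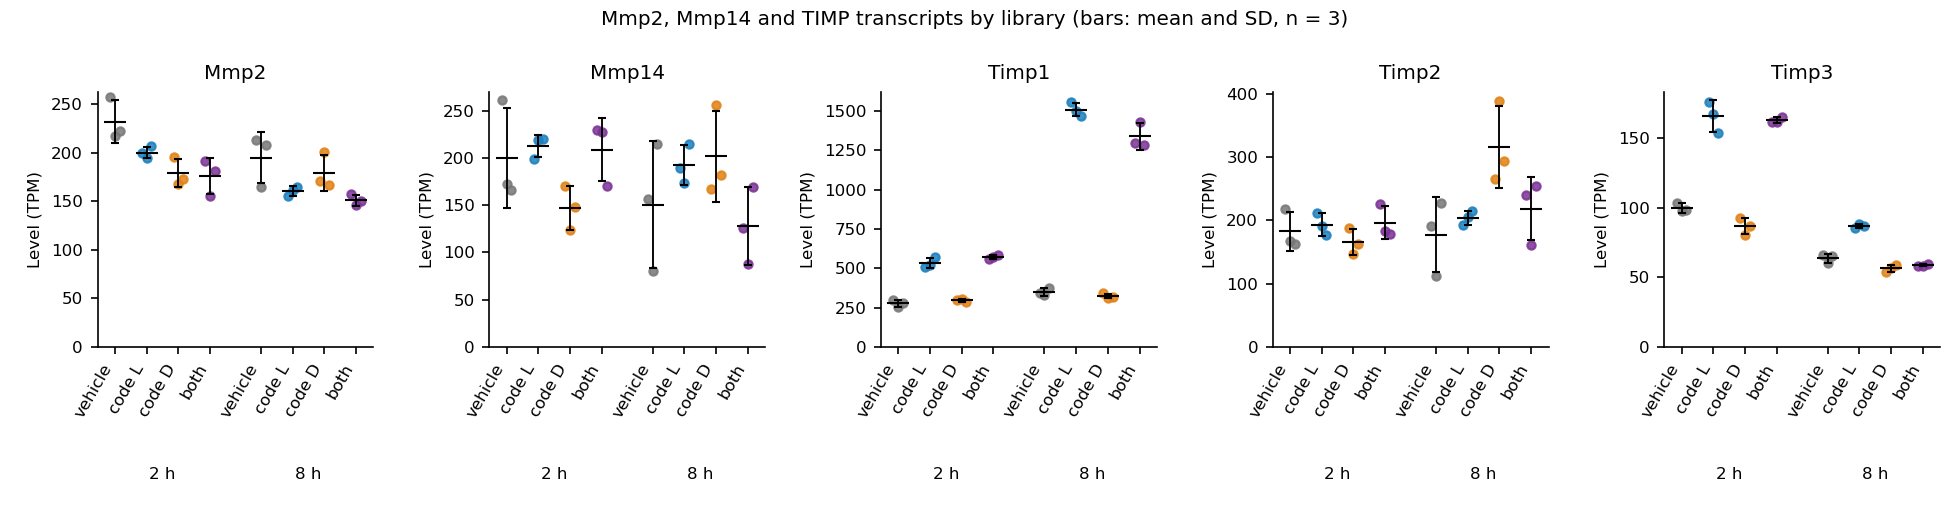
Level in TPM (vertical axes, each on its own scale from 0) of Mmp2, Mmp14, Timp1, Timp2 and Timp3 in each of the 24 libraries (points), with the mean and SD of 3 libraries in black. Timp1 at 8 h lies between 1284 and 1558 TPM in code L and with both agents and between 313 and 377 TPM with vehicle and in code D, while the Mmp14 groups overlap.

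Counted over the 7 members that were tested, both agents changed 5 at 2 h (4 higher, 1 lower), where 19.9% of all genes were called, and 4 at 8 h (3 higher, 1 lower), where 16.8% were called. Code L changed 3 at 2 h, all higher, with 13.9% of all genes called, and 5 at 8 h (4 higher, 1 lower) with 16.2%. Code D changed 1 at 2 h, Mmp13, with 0.785% of all genes called, and 4 at 8 h (2 higher, 2 lower) with 12.0%. Both agents differed from code L in 1 member at 2 h (0.767% of genes) and 2 at 8 h (9.18% of genes), and from code D in 4 at 2 h (18.7%) and 4 at 8 h (22.9%). The median log2 change of the 7 members with both agents was 0.76 at 2 h and 0.39 at 8 h, beside 0.004 and 0.025 for all genes. Mmp3 is not among the 7. Mmp10 is, and it entered the tests only through libraries of code L and of both agents. It is counted as higher with both agents at each time, in code L at 8 h, and against code D at each time. These tallies therefore add no evidence on Mmp10, and its 2 h calls were narrow, as given above. Because the members were chosen with earlier results of these data known, their counts and medians beside all genes are only a description.

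**Figure D4:**
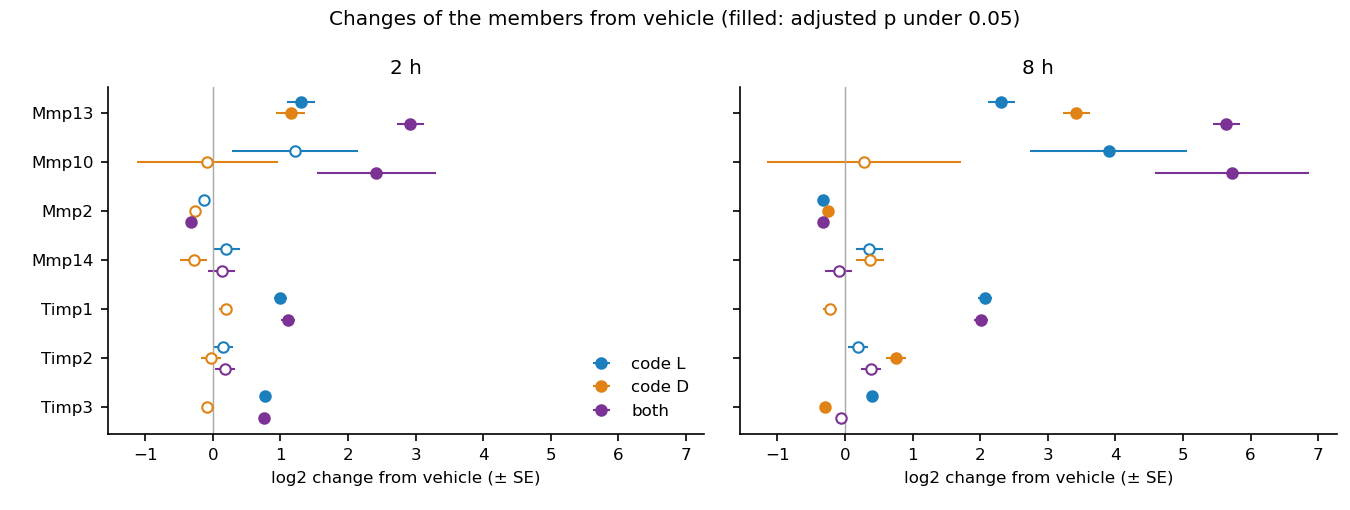
Log2 change from vehicle with its SE (horizontal axis) for the 7 tested members under code L, code D and both agents at 2 h and 8 h, filled where edgeR's adjusted p is under 0.05. Mmp13 is filled in all 6 comparisons, from 1.15 to 5.64, and Mmp14 in none.

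The size of several responses differed between the times, each measured against the vehicle of its own time. The response of Mmp13 was larger at 8 h than at 2 h by 2.27 ± 0.29 on the log2 scale in code D (edgeR adjusted p = 3.54e-05) and by 2.72 ± 0.28 with both agents (adjusted p = 8.77e-07). That of Timp1 was larger by 1.07 ± 0.14 in code L and 0.90 ± 0.14 with both (adjusted p = 3.96e-05 and 0.000118). That of Timp3 was smaller with both agents by 0.82 ± 0.09 (adjusted p = 3.77e-06). The time difference was called for 2 members in code D (6.76% of all genes), 3 in code L (4.17%) and 3 with both agents (9.68%).

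The make-up of the system followed from these levels. Mmp13 supplied 0.217 ± 0.025% of the summed TPM of the 5 MMPs with vehicle at 8 h, 1.03 ± 0.072% in code L, 2.17 ± 0.27% in code D and 11.1 ± 2.0% with both agents (SD, n = 3). Timp1 supplied 59.7 ± 5.1% of the summed TPM of the 3 TIMPs with vehicle at 8 h, 83.8 ± 0.93% in code L, 46.7 ± 5.2% in code D and 82.8 ± 3.4% with both. The ratio of TIMP to MMP transcripts was 1.75 ± 0.24 with vehicle at 8 h, 5.06 ± 0.38 in code L, 1.81 ± 0.15 in code D and 5.21 ± 0.83 with both. The 8 h vehicle libraries were at 1.63, 2.03 and 1.58 and the code D libraries at 1.91, 1.63 and 1.89, and code L and both lay above all of them. Replicate 2, the vehicle library that stands apart, is the one at 2.03. Without it the 2 ranges all but touch, at 1.629 for vehicle replicate 1 and 1.63 for code D replicate 2. At 2 h the ratio was 1.30 ± 0.095 with vehicle, 2.15 ± 0.074 in code L, 1.68 ± 0.12 in code D and 2.39 ± 0.18 with both. These are ratios of RNA, not of active enzyme to inhibitor.

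**Figure D5:**
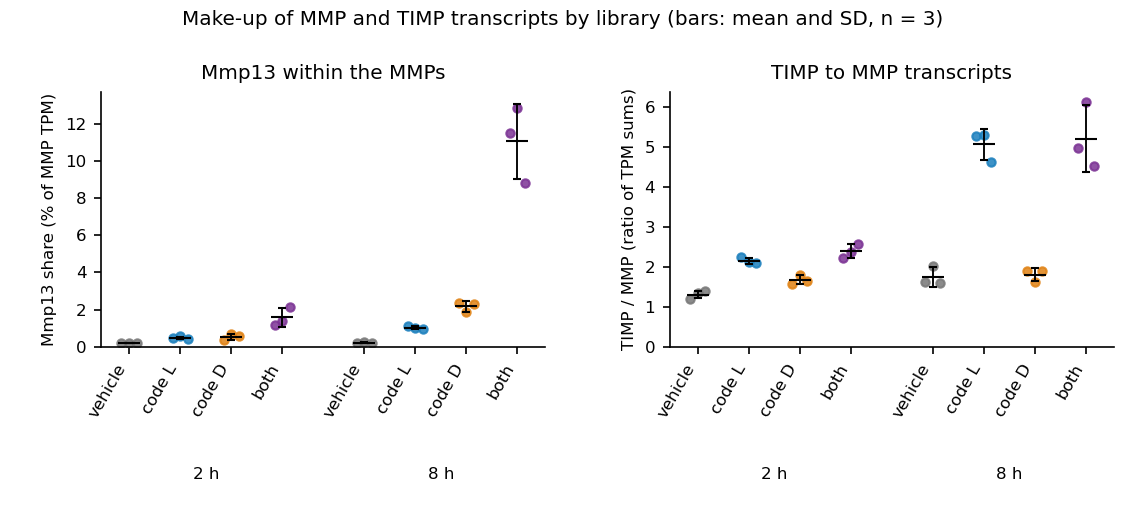
Share of Mmp13 in the summed TPM of the 5 MMPs (left, %) and ratio of summed TPM of the 3 TIMPs to that of the 5 MMPs (right) in each of the 24 libraries (points), with the mean and SD of 3 libraries in black. With both agents at 8 h the Mmp13 share averages 11.1%, beside 0.217% with vehicle, and the TIMP to MMP ratio averages 5.21, beside 1.75.

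The changes of other MMPs were smaller than those of Mmp13. Of 19 further genes, the remaining MMPs and Timp4, 10 were tested, and both agents changed 2 at 2 h (0 higher, 2 lower) and 3 at 8 h (1 higher, 2 lower), with a median log2 change of -0.11 and -0.06. Mmp11, or stromelysin 3, fell by 0.49 ± 0.08 at 2 h and by 0.35 ± 0.08 at 8 h (edgeR adjusted p = 0.00017 and 0.0042), and Mmp19 fell by 0.39 ± 0.10 at 2 h (adjusted p = 0.0065). The membrane-type Mmp16 rose by 0.55 ± 0.10 at 8 h (adjusted p = 0.00035), and Mmp23 fell by 0.53 ± 0.15 (adjusted p = 0.015). In the single treatments at 8 h Mmp16 rose by 0.53 ± 0.10 in code D and fell by 0.40 ± 0.10 in code L (adjusted p = 0.00081 and 0.0091). The other mouse collagenase genes were at or near 0: Mmp1a and Mmp1b had no count in any library, and Mmp8 had at most 16.

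Among 27 ADAM and ADAMTS proteases, the related families that shed membrane proteins and cut aggrecan and procollagen, 21 were tested. Both agents raised 4 and lowered 0 at 2 h (median 0.16), and raised 6 and lowered 2 at 8 h (median 0.16). Adamts1, an aggrecan- and versican-cutting protease, rose by 1.33 ± 0.08 at 2 h (edgeR adjusted p = 1.1e-10), and Adamts4, aggrecanase 1, by 0.71 ± 0.20 (adjusted p = 0.014). Adamts1 rose by 1.65 ± 0.08 in code L at that time (adjusted p = 5.8e-12) and stood at -0.23 ± 0.08 in code D (adjusted p = 0.22). At 8 h Adam12 rose by 2.15 ± 0.14 and the procollagen N-proteinase gene Adamts14 by 2.10 ± 0.25 (adjusted p = 1.7e-10 and 3.2e-06), and Adamts12 fell by 0.38 ± 0.09 (adjusted p = 0.0033).

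Of 21 genes for activation, inhibition and uptake of proteases, 19 were tested, and both agents raised 5 and lowered 1 at 2 h, and raised 5 and lowered 2 at 8 h (median 0.18 and 0.02). At 2 h the urokinase receptor gene Plaur rose by 1.54 ± 0.09 and the urokinase gene Plau by 1.07 ± 0.10 (edgeR adjusted p = 8.5e-11 and 7.4e-08). By 8 h Plau fell by 0.85 ± 0.10 relative to vehicle (adjusted p = 3.7e-06). Reck, a membrane-anchored MMP inhibitor, fell by 0.32 ± 0.08 at 2 h and by 0.78 ± 0.08 at 8 h (adjusted p = 0.005 and 2e-07). In code L at 8 h Reck fell by 0.71 ± 0.08 (adjusted p = 2.2e-06), and in code D it stood at -0.04 ± 0.08 (adjusted p = 0.78).

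Transcription factors known to act at collagenase promoters include the AP-1 genes whose motif is printed above. Of 18 such genes 17 were tested. Both agents raised 9 and lowered 1 at 2 h, and raised 10 and lowered 1 at 8 h, with a median log2 change of 0.86 and 0.83. At 2 h Fosb rose by 3.14 ± 0.20, Junb by 2.76 ± 0.22 and Fosl2 by 2.26 ± 0.18 (edgeR adjusted p = 2.9e-10, 1.5e-08 and 8.3e-09). Their 2 h values in code L were 2.76 ± 0.20, 2.47 ± 0.22 and 1.99 ± 0.18, and all 3 passed (adjusted p = 2.3e-09, 9.9e-08 and 7.2e-08). In code D they were -0.08 ± 0.22, 0.44 ± 0.22 and 0.17 ± 0.18, and none passed (adjusted p = 0.88, 0.39 and 0.68). At 8 h Jun rose by 2.00 ± 0.22 with both agents, by 1.35 ± 0.23 in code L and by 2.01 ± 0.22 in code D (adjusted p = 1.4e-06, 3e-04 and 1.9e-06). Runx2, the osteoblast factor that binds the RUNX motif, fell by 0.61 ± 0.18 with both agents at 8 h (adjusted p = 0.022), and stood at 0.34 ± 0.18 in code D and 0.07 ± 0.18 in code L (adjusted p = 0.21 and 0.85).

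Matrix proteins that MMPs cut made a list of 20, with 16 tested. Both agents raised 3 and lowered 0 at 2 h, and raised 2 and lowered 0 at 8 h (median 0.37 and 0.14). Spp1, the osteopontin gene, rose by 2.16 ± 0.09 at 2 h and by 3.83 ± 0.09 at 8 h (edgeR adjusted p = 6.8e-13 and 1.2e-16). Tnc, which encodes tenascin C, rose by 1.01 ± 0.09 and 0.92 ± 0.09 (adjusted p = 3.8e-08 and 1.7e-07). Over all 5 lists the median log2 change of all genes was 0.004 at 2 h and 0.025 at 8 h. The percentages called given above for both agents apply to these counts too. The lists were also chosen with earlier results of these data known, so their counts and medians are only a description.

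Ranked by Pearson correlation of log2 CPM over the 24 libraries, the genes with the pattern most like Mmp13, among 11328 ranked, were Spp1 (r = 0.974), Emp1 (0.96), Sprr1a (0.952), Ptchd4 (0.934) and Smox (0.931). Spp1 ran from 203 TPM with vehicle at 2 h to 3270 TPM with both agents at 8 h, by way of 670 TPM in code L and 1565 TPM in code D at 8 h. Those most like Mmp10 were Nop16 (0.892), Ccl9 (0.87), Anxa1 (0.862), Sod2 (0.858) and Mybbp1a (0.85). From vehicle to both agents at 8 h, Mmp10 went from 0.027 to 1.40 TPM, Nop16 only from 22.5 to 31.5 and Ccl9 from 2.59 to 11.6. Vehicle and code D libraries held 0 to 7 Mmp10 counts, so its correlations, those with members too, rest partly on values near the floor. Between members, Mmp10 went with Timp1 at r = 0.832 and with Mmp13 at 0.688, and Mmp13 with Mmp2 at -0.738. These correlations share libraries, group structure and sequencing depth, and are given as a description.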

How the data were processed

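RNA-seq was made from 24 libraries of Ocy454 cells, with an RNeasy kit for RNA and a DNBSEQ Fast RNA kit for libraries, per the labels' protocols. The authors deposited estimated counts per transcript, not scaled between libraries, and TPM per transcript, normalised for length and depth, as the file headers show. Per the submitters' processing notes the genome build is mm39; the quantifier was not given in the sources used here.

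Transcripts were assigned to genes by identifier with GENCODE M21, used for names only (135078 of 139145 transcripts, 99.45 to 99.60% of counts), and summed. Counts were rounded. edgeR 4.0.16 (R 4.3.3) with TMM scaling, its filter at a minimum count of 10 and its robust quasi-likelihood F test was fitted once to all 8 groups (16424 genes, 16 residual and 5 prior degrees of freedom). Tests are two-sided, adjusted p-values are Benjamini-Hochberg over all genes tested, and the threshold is 0.05. SEs are Wald values from the fit. The additive excess is the fitted CPM of both − L − D + vehicle with a delta-method SE from the same fit. The estimation was run on simulated data with the same spread for every gene. Changes were placed only in genes with more counts than Mmp10, so that run does not cover genes as rare. Ratios of few counts have 95% exact intervals, which cover counting error only. Replicate libraries differed beyond counting noise, and none was merged.

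The members, the 5 lists of 105 other genes and the motifs were chosen with earlier results of these data known. Named list genes are up to 3 risers and 3 fallers a list with the largest log2 change in both agents against vehicle at each time, past the threshold and with a mean of at least 1 CPM; a part of them is printed, some with their values in the single treatments. Correlations used genes averaging 1 CPM or more. Alternatives were median-of-ratios scaling, no filter, counts from length-scaled TPM, DESeq2 1.42.0, limma 3.58.1 on TPM as deposited for the excess, a fit of 1 time, a replicate block and leaving out each library. Leaving out together the 2 libraries that stand apart was chosen after seeing the data.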

Additional observations from a re-analysis of the deposited data

Results flagged for a closer look

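Responses whose size differed between the 2 times by a test of the difference itself (edgeR, log2 scale, 8 h minus 2 h) were those of Mmp13, Timp1, Timp2 and Timp3. For Mmp13 the difference was 2.27 ± 0.29 in code D (adjusted p = 3.54e-05), 1.01 ± 0.29 in code L (adjusted p = 0.0495) and 2.72 ± 0.28 with both agents (adjusted p = 8.77e-07). For Timp1 it was 1.07 ± 0.14 in code L and 0.90 ± 0.14 with both (adjusted p = 3.96e-05 and 0.000118). Timp3 differed in the other direction, by -0.37 ± 0.09 in code L and -0.82 ± 0.09 with both (adjusted p = 0.028 and 3.77e-06). Timp2 differed by 0.78 ± 0.21 in code D (adjusted p = 0.0293).

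Some of these calls were narrow. The Mmp13 difference in code L was lost without any one of 11 of the 12 libraries it uses (0.86 to 1.09, adjusted p from 0.059 to 0.17). The Timp3 difference in code L was lost without any one of 9 (-0.38 to -0.29, adjusted p from 0.055 to 0.14). The Timp2 difference in code D was lost without vehicle replicate 1 or code D replicate 2 or 3 at 2 h and without vehicle replicate 2 or code D replicate 2 at 8 h (0.58 to 0.78, adjusted p from 0.061 to 0.11). The Mmp13 differences in code D and with both agents, both Timp1 differences and the Timp3 difference with both agents kept their call without each library in turn.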

How the results depend on the processing

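Of 1591 values of the 112 tested pairs of member and comparison under the alternatives, 1446 kept their direction and side of the threshold, 54 lost a call, 35 gained one, 0 called values reversed and 56 moved between values that were not called. All 6 changes of Mmp13 from vehicle, its excess over additivity at 8 h (54.2 to 63.9 CPM, and 22.9 TPM with limma), and the changes of Timp1 in code L and with both agents kept their calls under every alternative run. Counts of genes called over the whole table moved more, and the cause was not tested.

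Without the filter on low counts, calls were 373 for code D at 2 h, 3006 for code D at 8 h, 258 and 2386 for both agents against code L at 2 h and 8 h, 88 and 3094 for the interaction, 68 and 3409 for the additive excess, and 3065 and 1046 for the time differences of code D and code L. Members called were then 4 (both against code L, 8 h), 2 (interaction, 8 h), 4 (excess, 8 h) and 4 (time difference, code D), and the Mmp10 excess at 8 h was 1.49 CPM (adjusted p = 0.027, from 0.027 to 0.53 over its alternatives). In a fit of 1 time, calls were 196 and 1313 for code D at 2 h and 8 h, 1718 for code L at 8 h, 909 for both against code L at 8 h, 1 and 13 for the interaction and 42 for the excess at 8 h. The Mmp13 excess at 2 h was then 6.88 CPM (adjusted p = 0.28) and 0 members had an excess. With DESeq2, calls were 315 for code D at 2 h, with 2 members, 214 for both against code L at 2 h, 3446 for the interaction at 8 h, with 3 members, and 2366 for the time difference of code D. Counts from length-scaled TPM gave 2 and 326 for the excess at 2 h and 8 h, 479 for the interaction at 8 h, 373 and 993 for the time differences of code L and both agents, and for Mmp13 an excess of 6.93 CPM at 2 h (adjusted p = 0.061, 0 members called). With limma on TPM the excess was called for 24 genes at 2 h, with 0 members (Mmp13 3.2 TPM, adjusted p = 0.73), and for 108 at 8 h. Without the 2 libraries that stand apart, calls were 2446 for both against code D at 8 h, 25 for the interaction and 64 for the excess at 8 h, and 1 member had a time difference in code L.

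Leaving out each library in turn gave 69 to 96 calls for code D and 1487 to 2084 for code L at 2 h, 1051 to 3302 and 1518 to 3408 at 8 h, 74 to 107 and 886 to 1936 for both against code L at 2 h and 8 h, and 1943 to 4263 for both against code D at 8 h. Interaction calls ran from 0 to 7 at 2 h and from 30 to 4203 at 8 h (0 to 3 members), and excess calls from 2 to 7 at 2 h (0 to 1 members) and from 79 to 4080 at 8 h (1 to 4 members). The lowest 8 h counts of both came without replicate 2 with both agents and the highest without replicate 3 with both agents. Time differences ran from 378 to 3368 in code D (1 to 4 members) and from 449 to 797 in code L (1 to 2 members). The Mmp13 excess at 2 h ran from 4.91 to 8.37 CPM.

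Replicate numbers are shared between groups. Deviations of same-numbered libraries correlated between -0.254 and 0.355 (median -0.001, 2 of 36 pairs over 0.1). Those of different-numbered libraries correlated between -0.31 and 0.224 (median 0.009, 6 of 72 pairs over 0.1). The labels do not say whether same-numbered libraries share a culture or batch, and these correlations cannot decide it. With the replicate block, 4 calls were lost: Mmp10 with both agents against vehicle (2.39, adjusted p = 0.064) and against code D (2.59, adjusted p = 0.052) at 2 h, the Mmp13 excess at 2 h (6.99 CPM, adjusted p = 0.061, leaving 0 members) and the Mmp13 time difference in code L (1.02, adjusted p = 0.068). No count of calls moved by over 1.5 times except that of members with an excess at 2 h. Depth limits Mmp3 and Mmp10, whose vehicle libraries at 8 h held 0 to 3 counts, and RNA levels do not measure active enzyme.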
